A study of Mus musculus with 9 samples.

Results

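RNA was sequenced from whole lungs of mice, and 6 of the 9 libraries of the series are compared here across all genes. For 3 libraries, vehicle libraries 1 to 3, the lungs came from TGFalpha mice kept on Dox (doxycycline) for 6 weeks and given vehicle for the last 3 weeks. They are called TGFα lungs here. For 3 others, control libraries 1 to 3, the lungs came from control mice given vehicle. The labels of the controls say nothing more of their genotype and name no Dox, while the design text can be read as Dox in both groups. If the controls had none, the transgene and Dox cannot be told apart. The remaining 3 libraries, from TGFalpha mice on Dox given pirfenidone, an anti-fibrotic drug, enter only the estimate of spread and a few values given for reference. The sources used here give neither the promoter of the transgene nor the age, sex and strain of the mice. No label says more than that each library is total lung RNA, so p-values measure the spread between these libraries.

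Transforming growth factor alpha is a secreted growth factor that binds the epidermal growth factor receptor, a receptor tyrosine kinase whose signal runs through the RAS-ERK and PI3K-AKT cascades and is known to raise protein synthesis and cell growth. Mice that make it in the lung epithelium are a known model of progressive lung fibrosis. Whole lung holds epithelium, endothelium, mesenchyme, nerve, smooth muscle and many immune cells, so in these bulk libraries fewer cells of a type and less RNA per cell cannot be told apart. The largest changes are chosen from outside lists of extracellular matrix genes and common cell markers. Family lists were not filtered in this way and hold some cell markers.

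Values are RPKM, reads scaled to gene length and to the total reads of the library. The libraries held 18634015, 16327952 and 18874158 reads in TGFα lungs and 16815301, 15474002 and 16923531 reads in control lungs. Lung markers were present throughout, and of 10 on the list 1 was higher in TGFα lungs (Sftpb, surfactant protein B) and 3 were lower (the endothelial genes Cdh5 and Pecam1, and Hopx of alveolar epithelium). Cdh5 stood at 143, 105 and 110.3 RPKM in TGFα lungs, against 306, 271 and 189 RPKM in control lungs, and Pecam1 at 190.1, 124 and 128 RPKM in TGFα lungs, against 322, 295 and 217 RPKM in control lungs. Transcripts of skeletal muscle and fat were unevenly present, and their source was not tested. The 21 skeletal muscle markers summed to 1561, 571 and 9.75 RPKM in TGFα lungs, against 16.7, 27.3 and 21.7 RPKM in control lungs. None of the 17 of them that were tested with limma was called, although Acta1 alone had 407, 158 and 0.540 RPKM in TGFα lungs, against 0.606, 0.740 and 0.451 RPKM in control lungs (log2 fold change 4.86, SE 2.38, adjusted p = 0.168). The 6 adipocyte markers summed to 112.7, 21.1 and 7.70 RPKM in TGFα lungs, against 18.5, 22.9 and 25.5 RPKM in control lungs, and 0 of 5 tested was called. Tgfa itself stood at 7.80, 6.37 and 6.38 RPKM in TGFα lungs, against 7.47, 7.09 and 5.95 RPKM in control lungs (log2 fold change 0.00, SE 0.11, adjusted p = 0.989), so the transgene cannot be seen in these gene values and the labels are not checked by them. Pecam1 lost the call without vehicle libraries 2 or 3 (adjusted p = 0.0509 to 0.0532). Sftpb lost the call without vehicle libraries 2 or 3 or control libraries 2 or 3 (adjusted p = 0.051 to 0.097). Hopx lost the call without vehicle libraries 2 or 3 or control libraries 1 or 2 (adjusted p = 0.0635 to 0.0681). Sftpb also lost the call without a filter, with only the 6 libraries or with a replicate block.

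Of 16165 genes in the table, 13849 were above 1 RPKM in at least 3 of the 9 libraries and were tested. A gene is called here when its adjusted p is under 0.05 in limma, a linear model on log2(RPKM + 1) with a spread shared across genes. By that rule 3222 genes were called, 23.3% of those tested. Of these, 1665 were higher in TGFα lungs (12.0%) and 1557 were lower (11.2%), and the median log2 fold change of all tested genes was 0.04. The 3 TGFα libraries lay wholly above or wholly below the 3 control libraries for 44.2% of tested genes. Most genes named in the lists below were picked among called genes with large changes. That choice favours groups that do not overlap, so such separation is no added support. The count of calls depended on single libraries. It was 1361 without vehicle library 2, 1317 without vehicle library 3, 1667 without control library 1 and 1614 without control library 2, against 3769 without vehicle library 1 and 3490 without control library 3. For each list described below, parentheses give the range of its counts with 1 library left out and name the libraries whose omission moved a count by over 1.5 times. The counts of a list are to be read beside the 12.0% higher and 11.2% lower of all tested genes. With vehicle library 3 as the lone TGFα lung, the one with no excess of skeletal muscle transcripts, 908 genes were called and 877 of them were among the 3222.

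The 15 largest increases outside the matrix and marker lists came from unrelated families. These and the 15 largest decreases were taken only from called genes without overlap between the groups. Their separation therefore follows from the choice, and 44.2% of all tested genes did not overlap. Ankrd37, an ankyrin-repeat protein known as a target of hypoxia-inducible factor, stood at 53.6, 30.4 and 23.9 RPKM in TGFα lungs, against 3.49, 2.36 and 2.94 RPKM in control lungs (log2 fold change 3.16, SE 0.34, adjusted p = 0.00144). Gdf6, a growth factor of the BMP family, stood at 6.62, 3.71 and 5.54 RPKM in TGFα lungs, against 0.152, 0.128 and 0.151 RPKM in control lungs (log2 fold change 2.43, SE 0.33, adjusted p = 0.00269). Enpp1, the membrane enzyme that makes extracellular pyrophosphate from ATP, had 11.4, 11.3 and 14.6 RPKM in TGFα lungs, against 1.14, 1.25 and 3.01 RPKM in control lungs (log2 fold change 2.31, SE 0.36, adjusted p = 0.00425). For all 3 genes every TGFα library lay above every control library, and the means differed 12.3-fold, 36.9-fold and 6.90-fold. Serpine2, protease nexin-1, an inhibitor of thrombin and plasminogen activators, was among the more abundant of the set, at 95.5, 168 and 189 RPKM in TGFα lungs, against 31.1, 35.2 and 33.7 RPKM in control lungs (log2 fold change 2.09, SE 0.23, adjusted p = 0.00145). Akr1c19, an aldo-keto reductase, had 7.91, 8.28 and 7.34 RPKM in TGFα lungs, against 0.862, 0.989 and 0.761 RPKM in control lungs (log2 fold change 2.24, SE 0.17, adjusted p = 0.000593). Atp6v0a4, the a4 subunit of the vacuolar proton pump best known from acid-secreting kidney cells, had 11.5, 7.51 and 6.73 RPKM in TGFα lungs, against 1.34, 0.905 and 0.648 RPKM in control lungs (log2 fold change 2.27, SE 0.29, adjusted p = 0.00255). Akr1c19 and Atp6v0a4 were low in all control lungs, and none of the 3 overlapped between the groups. Tmem213, a small membrane protein, Tc2n, a C2-domain protein, and Crispld1, a secreted protein of the CAP superfamily, had log2 fold changes of 2.66, 2.17 and 2.09 (adjusted p = 0.00518, 0.00533 and 0.000971).

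The size of some of the largest increases differed widely between the TGFα lungs. Apod, a lipocalin that carries small lipids, stood at 109, 11.4 and 22.8 RPKM in TGFα lungs, against 2.95, 3.14 and 2.62 RPKM in control lungs (log2 fold change 3.03, SE 0.80, adjusted p = 0.0276), so vehicle library 1, the one richest in muscle and fat transcripts, was far above the others. In vehicle library 3 both marker sums were under those of control lungs, and Apod lay above the control lungs there as the choice of genes required. What the muscle and fat transcripts contribute was not tested. Capn6, a calpain without protease activity, stood at 4.95, 20.8 and 17.03 RPKM in TGFα lungs, against 1.27, 1.86 and 1.31 RPKM in control lungs (log2 fold change 2.43, SE 0.63, adjusted p = 0.0263). Ntrk2, the BDNF receptor TrkB, stood at 17.5, 5.44 and 7.84 RPKM in TGFα lungs, against 2.14, 1.52 and 0.922 RPKM in control lungs (log2 fold change 2.04, SE 0.52, adjusted p = 0.0244). Bex2, a small X-linked adaptor protein, stood at 37.8, 68.5 and 54.9 RPKM in TGFα lungs, against 17.5, 19.8 and 4.39 RPKM in control lungs (log2 fold change 2.06, SE 0.51, adjusted p = 0.0218). Apod lost the call without vehicle library 3 or control libraries 1, 2 or 3 (adjusted p = 0.054 to 0.0762). Bex2 lost the call without vehicle libraries 2 or 3 (adjusted p = 0.0746 to 0.0847). Capn6 lost the call without vehicle libraries 2 or 3 or control libraries 1, 2 or 3 (adjusted p = 0.052 to 0.1). Ntrk2 lost the call without vehicle libraries 1 or 3 or control libraries 1, 2 or 3 (adjusted p = 0.0519 to 0.0703). Snord52, a small nucleolar RNA of 118 bases, stood at 9.10, 6.23 and 6.29 RPKM in TGFα lungs, against 0, 2.19 and 1.00 RPKM in control lungs (log2 fold change 2.13, SE 0.36, adjusted p = 0.00585); a transcript this short may share reads with its host transcript, so its counts are uncertain.

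The 15 largest decreases kept their calls with any 1 of the 6 libraries left out. Several are genes of vessels, and Pln is a heart muscle gene. The heart muscle genes Actc1, Myl7 and Myl4 were lower beside it (log2 fold changes -2.42, -2.33 and -2.03), and their part was not tested. Slurp1, a secreted protein of the Ly6 family that acts on nicotinic receptors, stood at 0.307, 0.700 and 0.908 RPKM in TGFα lungs, against 11.3, 14.2 and 6.87 RPKM in control lungs (log2 fold change -2.81, SE 0.35, adjusted p = 0.00209). Sele, the leukocyte adhesion molecule E-selectin, had 0.129, 0.126 and 0.146 RPKM in TGFα lungs, against 4.31, 5.53 and 6.53 RPKM in control lungs (log2 fold change -2.50, SE 0.15, adjusted p = 0.000315). Tmem100, a membrane protein of endothelium and nerve known to act downstream of BMP receptors, had 81.7, 75.5 and 58.0 RPKM in TGFα lungs, against 393, 350.4 and 244 RPKM in control lungs (log2 fold change -2.17, SE 0.24, adjusted p = 0.00166). Mean levels were 16.9-fold, 40.8-fold and 4.59-fold lower in TGFα lungs, with no overlap between the groups, as the choice of genes required. Hpgd, the enzyme that inactivates prostaglandins, had 65.1, 33.3 and 38.1 RPKM in TGFα lungs, against 242, 239.9 and 131 RPKM in control lungs (log2 fold change -2.15, SE 0.30, adjusted p = 0.003). Npr3, the clearance receptor for natriuretic peptides, had 4.40, 4.20 and 4.03 RPKM in TGFα lungs, against 29.8, 19.9 and 18.1 RPKM in control lungs (log2 fold change -2.15, SE 0.19, adjusted p = 0.000948). Smad6, an inhibitory SMAD induced by BMP signals, had 27.7, 16.1 and 14.998 RPKM in TGFα lungs, against 91.5, 82.6 and 61.9 RPKM in control lungs (log2 fold change -1.98, SE 0.22, adjusted p = 0.00166). Nrarp, a feedback inhibitor of Notch signalling, had 10.3, 7.06 and 5.08 RPKM in TGFα lungs, against 38.5, 32.2 and 28.5 RPKM in control lungs (log2 fold change -2.04, SE 0.27, adjusted p = 0.00264). For Hpgd, Npr3, Smad6 and Nrarp too, each TGFα lung was below each control lung. Tmcc2, a coiled-coil membrane protein, Ankrd1, an ankyrin-repeat protein of stressed muscle and a known YAP target, and Pln, the calcium pump inhibitor phospholamban, had log2 fold changes of -2.11, -2.22 and -2.10 (adjusted p = 0.000552, 0.00264 and 0.00278).

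**Figure D1:**
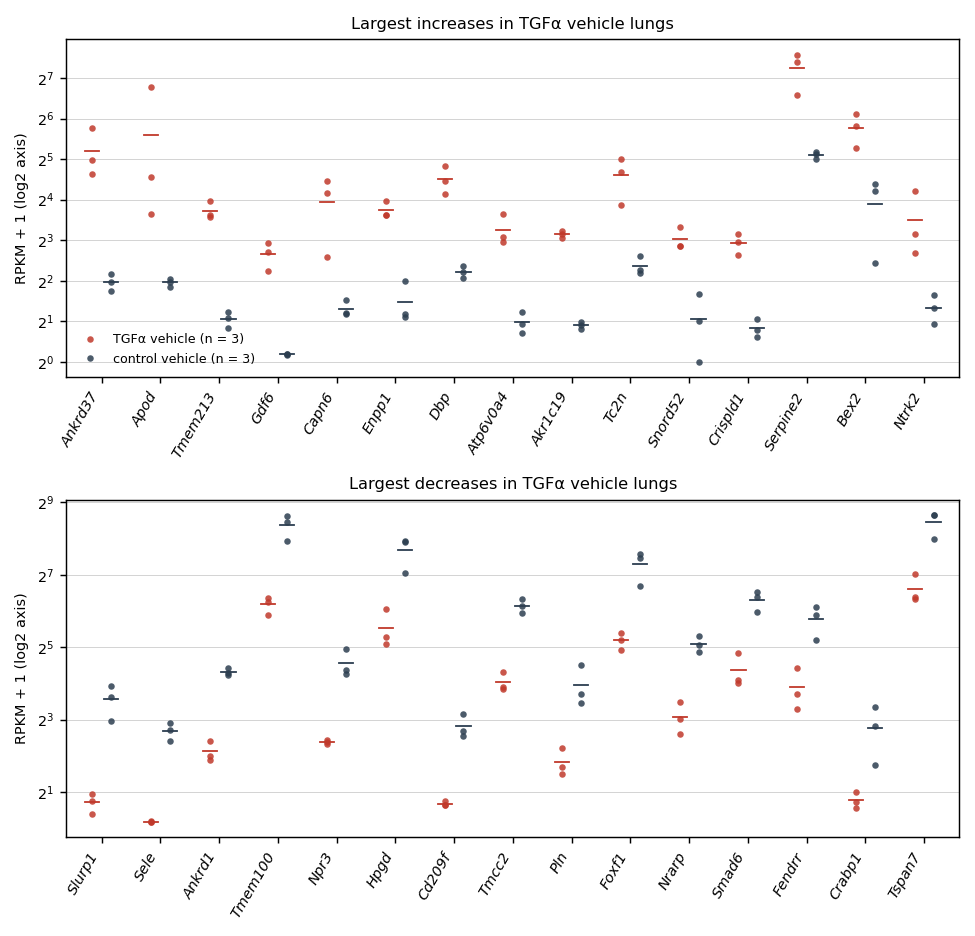
The 15 largest increases (upper panel) and 15 largest decreases (lower panel) outside the matrix and marker lists. Each point is a library, short bars are group means, TGFα lungs stand left of control lungs, and the vertical log2 axis gives RPKM + 1. The genes were chosen to have no overlap between the groups, so the 3 TGFα points lie clear of the 3 control points. For Apod, vehicle library 1 stands apart at 109 RPKM.

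Many genes of the protein-making machinery were called higher. Of all the lists, that of small nucleolar RNA host genes had the largest share of higher calls. Small nucleolar RNAs guide the chemical modification of ribosomal RNA, and most are cut from introns of host transcripts that often encode no protein. Of 13 host genes tested, 9 were called higher and 0 lower (4 to 9 higher and 0 lower with 1 library left out, moved without vehicle libraries 2 or 3 or control libraries 1 or 2), with a median log2 fold change of 0.66 beside 0.04 for all genes. After correction for gene length, 6 were called higher. Host genes are known for a run of pyrimidines at the first transcribed bases, which they share with ribosomal protein and translation factor genes, and the starts of 4 higher host genes with such a run, 1 without and a translation factor gene are shown to let the letters be compared. The sequences are from RefSeq (GRCm38.p6), run from 30 bases before the annotated start to 20 after it on the coding strand, and have the run in capitals. They are Snhg12 at chr4:132308648-132308697 (+), Snhg8 at chr3:123508317-123508366 (-), Gas5 at its second annotated start, chr1:161035136-161035185 (+), Snhg7 at chr2:26640225-26640274 (-), Snhg1 at chr19:8723457-8723506 (+) and Eif3f at chr7:108934385-108934434 (+).
Snhg12: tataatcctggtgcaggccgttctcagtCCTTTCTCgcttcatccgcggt
Snhg8: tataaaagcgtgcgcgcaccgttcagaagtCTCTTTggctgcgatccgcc
Gas5: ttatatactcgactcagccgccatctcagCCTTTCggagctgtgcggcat
Snhg7: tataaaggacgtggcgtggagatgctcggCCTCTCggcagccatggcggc
Snhg1: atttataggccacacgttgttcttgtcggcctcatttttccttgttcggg
Eif3f: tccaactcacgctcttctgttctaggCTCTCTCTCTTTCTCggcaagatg

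A run was counted when a C that lay within 5 bases of an annotated start was followed by at least 4 bases that were each C or T, read on the coding strand only; this length was chosen after others had been tried. By that rule 7 of the 11 tested host genes with a window held a run (63.6%). Of all 10935 tested genes with a window 23.7% did, and of all 32851 windows 18.3%. Translation factors were near the share of all tested genes, with 13 of 47 (27.7%). Eif3f and Eef1a1 held a run, while Eef2, Eef1b2 and Eif4b held none at their annotated starts. For a longer run, a C within 10 bases of the start followed by at least 6 such bases, the numbers were 2 of 11 host genes and 15.5% of tested genes. Among all tested genes, 13.7% of the 2591 with the shorter run were called higher, against 11.4% of the 8344 without. Leaving out ribosomal protein genes, these shares were 12.9% and 11.1%. The run is a description of the sequence, and nothing about its use was measured.

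Snhg1, the most abundant host gene, stood at 38.8, 60.7 and 61.6 RPKM in TGFα lungs, against 19.2, 25.5 and 27.2 RPKM in control lungs (log2 fold change 1.11, SE 0.27, adjusted p = 0.0215). Gas5, named for its rise in growth-arrested cells, stood at 39.0, 56.0 and 50.1 RPKM in TGFα lungs, against 27.2, 27.2 and 25.8 RPKM in control lungs (log2 fold change 0.82, SE 0.16, adjusted p = 0.00886). Snhg4 had 3.87, 5.48 and 5.29 RPKM in TGFα lungs, against 2.17, 2.64 and 2.98 RPKM in control lungs (log2 fold change 0.70, SE 0.14, adjusted p = 0.0103). Every TGFα lung exceeded every control lung for these 3, with vehicle library 1 the lowest of the TGFα lungs for Snhg1 and Gas5. Snhg8 had 13.8, 17.8 and 14.6 RPKM in TGFα lungs, against 9.32, 10.9 and 7.53 RPKM in control lungs (log2 fold change 0.68, SE 0.20, adjusted p = 0.0373). Snhg12, chosen after its values were seen, had 11.7, 13.04 and 14.1 RPKM in TGFα lungs, against 6.87, 8.32 and 7.996 RPKM in control lungs (log2 fold change 0.68, SE 0.12, adjusted p = 0.00594). Snhg7, chosen in the same way, had 8.25, 9.33 and 8.71 RPKM in TGFα lungs, against 5.69, 5.14 and 6.13 RPKM in control lungs (log2 fold change 0.55, SE 0.09, adjusted p = 0.0045). The other called members were Snhg3, Snhg6 and Taf1d, a subunit of a ribosomal RNA transcription factor whose gene carries small nucleolar RNAs. Snhg3 lost the call without vehicle library 3 or control library 2 (adjusted p = 0.0539 to 0.0643). Snhg8 and Taf1d lost the calls without vehicle libraries 2 or 3 or control libraries 1, 2 or 3 (adjusted p = 0.0518 to 0.152). Snhg6 and Snhg1 lost the calls without vehicle libraries 2 or 3 or control libraries 1 or 2 (adjusted p = 0.0566 to 0.108). Snhg3 and Snhg6 also lost the calls with the length correction. Snhg8 also lost the call with a replicate block or with the length correction.

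Of 59 translation factors, 16 were called higher and 2 lower (Eif1 and Eif4e3, with 8 to 22 higher and 0 to 2 lower with 1 library left out, moved without vehicle libraries 2 or 3 or control libraries 1 or 2), that is 27.1% and 3.39%, with a median of 0.22. All 5 subunits of elongation factors 1 and 2 in the list that were called were higher. Eef2, which moves the ribosome along the message, had 780.2, 1002 and 849 RPKM in TGFα lungs, against 489.7, 461 and 491 RPKM in control lungs (log2 fold change 0.86, SE 0.12, adjusted p = 0.003). Eef1b2, an exchange factor for elongation factor 1, had 164, 269.5 and 226 RPKM in TGFα lungs, against 96.9, 101 and 119 RPKM in control lungs (log2 fold change 1.03, SE 0.19, adjusted p = 0.00805). Eef1a1, which delivers aminoacyl-tRNA and was the most abundant member, had 2730.3, 3548 and 3103 RPKM in TGFα lungs, against 1799, 1810.5 and 2061 RPKM in control lungs (log2 fold change 0.72, SE 0.16, adjusted p = 0.0164). Control library 3 stood above the other control lungs for Eef1a1 while each TGFα lung stood above it. Eif4b, a helper of the helicase that unwinds the 5′ end of messages, had 97.7, 133 and 118 RPKM in TGFα lungs, against 65.2, 63.9 and 73.9 RPKM in control lungs (log2 fold change 0.76, SE 0.13, adjusted p = 0.00656). Eif3f, chosen after its values were seen and shown above for its sequence, had 149, 185 and 164 RPKM in TGFα lungs, against 97.7, 102 and 110.4 RPKM in control lungs (log2 fold change 0.67, SE 0.09, adjusted p = 0.003). In all, 8 of the 16 were subunits of initiation factor 3, the scaffold that brings the message to the small ribosomal subunit. Eef1a1, Eif1 and Eif4e3 lost the calls without vehicle libraries 2 or 3 or control libraries 1 or 2 (adjusted p = 0.054 to 0.127). Eef1a1 also lost the call without a filter. Eif1 also lost the call with only the 6 libraries.

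Ribosome assembly genes gave 18 higher of 87 tested and 2 lower (Bysl and Sbds, with 2 to 27 higher and 0 to 1 lower with 1 library left out, moved without vehicle libraries 1, 2 or 3 or control libraries 1, 2 or 3), with a median of 0.20. Npm1, nucleophosmin, a chaperone of the nucleolus, was the most abundant, at 181, 324 and 287 RPKM in TGFα lungs, against 122.7, 128 and 158 RPKM in control lungs (log2 fold change 0.92, SE 0.24, adjusted p = 0.0274). Polr2h, a subunit shared by the 3 nuclear RNA polymerases, had 14.0, 21.6 and 19.1 RPKM in TGFα lungs, against 9.67, 10.5 and 13.2 RPKM in control lungs (log2 fold change 0.66, SE 0.17, adjusted p = 0.0274). The aminoacyl-tRNA synthetases, which charge tRNAs with amino acids, gave 7 higher of 37 and 0 lower (3 to 12 higher and 0 lower with 1 library left out, moved without vehicle libraries 1, 2 or 3 or control libraries 1, 2 or 3). Aimp2, a scaffold of the multi-synthetase complex, had 15.3, 22.4 and 18.0 RPKM in TGFα lungs, against 10.3, 11.2 and 12.5 RPKM in control lungs (log2 fold change 0.65, SE 0.13, adjusted p = 0.0108). Qars, the glutaminyl-tRNA synthetase, had 36.2, 44.2 and 39.0 RPKM in TGFα lungs, against 25.3, 25.5 and 29.2 RPKM in control lungs (log2 fold change 0.56, SE 0.10, adjusted p = 0.0067). Lars2, the mitochondrial leucyl enzyme and the most abundant of the list, was not called, at 75.4, 80.6 and 78.4 RPKM in TGFα lungs, against 103, 87.2 and 117 RPKM in control lungs (log2 fold change -0.38, SE 0.14, adjusted p = 0.0872). The called ones had log2 fold changes under 1, with no overlap between the groups. Npm1, Polr2h and Sbds lost the calls without vehicle libraries 2 or 3 or control libraries 1 or 2 (adjusted p = 0.0871 to 0.137). Bysl lost the call without vehicle libraries 1 or 3 or control libraries 1, 2 or 3 (adjusted p = 0.058 to 0.0905).

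Synthesis of nucleotides and polyamines, the building blocks and counter-ions of nucleic acids, had one of the highest medians of the lists, 0.45, and of 46 genes tested 14 were called higher and 2 lower (Pnp and Impdh1, with 3 to 20 higher and 0 to 2 lower with 1 library left out, moved without vehicle libraries 1, 2 or 3 or control libraries 1 or 2). Paox, a polyamine oxidase, had 9.82, 13.2 and 10.9 RPKM in TGFα lungs, against 3.94, 4.80 and 6.16 RPKM in control lungs (log2 fold change 1.05, SE 0.15, adjusted p = 0.0032). Azin2, an antizyme inhibitor that spares ornithine decarboxylase, had 8.18, 9.86 and 9.74 RPKM in TGFα lungs, against 5.05, 5.49 and 3.61 RPKM in control lungs (log2 fold change 0.85, SE 0.15, adjusted p = 0.00673). Dctd, deoxycytidylate deaminase, had 0.964, 3.50 and 2.91 RPKM in TGFα lungs, against 0.114, 0.187 and 0.417 RPKM in control lungs (log2 fold change 1.40, SE 0.40, adjusted p = 0.036). Among the 14 were also 4 enzymes of purine ring synthesis and guanylate formation (Gart, Paics, Atic and Gmps), and Impdh2, while its partner enzyme Impdh1 was lower. Sat1, which acetylates polyamines for export and was the most abundant member, was not called, at 129, 121 and 122 RPKM in TGFα lungs, against 125, 133 and 183 RPKM in control lungs (log2 fold change -0.22, SE 0.14, adjusted p = 0.283). Atic, Gart, Impdh1 and Dctd lost the calls without vehicle libraries 2 or 3 or control libraries 1 or 2 (adjusted p = 0.0829 to 0.146). Pnp lost the call without vehicle libraries 1, 2 or 3 or control libraries 1, 2 or 3 (adjusted p = 0.0692 to 0.126). Impdh2 lost the call without vehicle libraries 2 or 3 or control library 1 (adjusted p = 0.0535 to 0.0595). Paics lost the call without vehicle libraries 2 or 3 or control libraries 1, 2 or 3 (adjusted p = 0.0528 to 0.109). Impdh1 also lost the call with only the 6 libraries.

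The list of ATF4 targets and serine, glycine and asparagine synthesis moved in both directions: of 36 genes tested 9 were called higher and 6 lower (4 to 13 higher and 2 to 7 lower with 1 library left out, moved without vehicle libraries 2 or 3 or control libraries 1 or 2). Enzymes and a carrier were among the higher. Phgdh, the first enzyme of serine synthesis, had 15.6, 26.8 and 22.8 RPKM in TGFα lungs, against 6.23, 6.11 and 12.98 RPKM in control lungs (log2 fold change 1.31, SE 0.30, adjusted p = 0.0172). Shmt1, which turns serine into glycine and a one-carbon unit, had 7.80, 17.3 and 14.5 RPKM in TGFα lungs, against 4.18, 4.82 and 5.24 RPKM in control lungs (log2 fold change 1.24, SE 0.34, adjusted p = 0.0301). Slc7a5, the large neutral amino acid transporter LAT1, had 13.7, 9.88 and 10.2 RPKM in TGFα lungs, against 3.64, 3.51 and 6.21 RPKM in control lungs (log2 fold change 1.19, SE 0.21, adjusted p = 0.00678). Some transcription factors of the same list were lower. Atf3 had 4.62, 6.26 and 4.34 RPKM in TGFα lungs, against 8.28, 15.7 and 19.5 RPKM in control lungs (log2 fold change -1.29, SE 0.27, adjusted p = 0.012). Atf4, chosen after its values were seen, had 72.0, 69.0 and 74.8 RPKM in TGFα lungs, against 81.6, 101 and 108 RPKM in control lungs (log2 fold change -0.41, SE 0.11, adjusted p = 0.0291). Cebpb, Ddit3 and Jdp2 were lower too. Slc3a2, the heavy chain that LAT1 needs at the membrane, was the remaining member called lower. Atf3 lost the call without vehicle library 3 (adjusted p = 0.0526). Atf4 lost the call without vehicle libraries 2 or 3 or control libraries 2 or 3 (adjusted p = 0.0585 to 0.104). Cebpb lost the call without vehicle library 3 or control library 2 (adjusted p = 0.0549 to 0.0615). Ddit3 lost the call without vehicle libraries 2 or 3 (adjusted p = 0.0516 to 0.0535). Shmt1 and Phgdh lost the calls without vehicle libraries 2 or 3 or control libraries 1 or 2 (adjusted p = 0.0634 to 0.113).

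**Figure D2:**
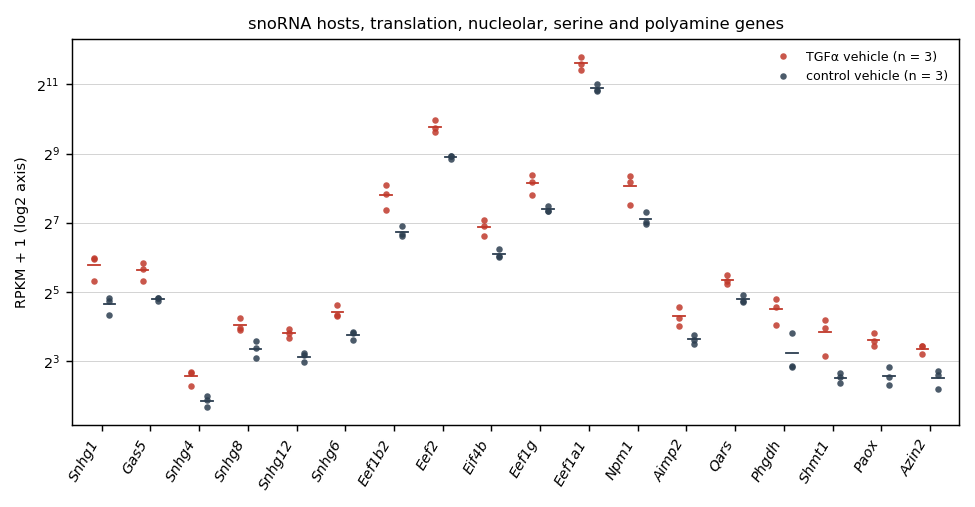
RPKM + 1 on a log2 axis for host genes, elongation and initiation factors, nucleophosmin, 2 synthetase genes, and genes of serine and polyamine metabolism. Points are libraries, short bars are group means, and TGFα lungs stand left of control lungs. The groups are separate for each gene shown, and most differ by about 1 step of the axis or less. All are called genes, a choice that favours separate groups.

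Some other lists of gene expression and turnover held few calls, and their counts moved with single libraries. Of 79 spliceosome and RNA-binding factors, 4 were called higher, Hnrnpa1 and Hnrnpul1 among them, and 0 lower (0 to 13 higher and 0 to 1 lower with 1 library left out, moved without vehicle libraries 1, 2 or 3 or control libraries 1, 2 or 3). Proteasome subunits gave 1 higher (Psme4) and 1 lower (Psmb10, a subunit of the immunoproteasome) of 47 (0 to 6 higher and 0 to 2 lower with 1 library left out, moved without vehicle libraries 1, 2 or 3 or control libraries 1, 2 or 3). Autophagy genes gave 2 higher and 2 lower of 31 (1 to 2 higher and 0 to 1 lower with 1 library left out, moved without vehicle libraries 1, 2 or 3 or control libraries 1, 2 or 3). Lysosomal genes gave 4 higher and 3 lower of 47 (3 to 15 higher and 2 to 3 lower with 1 library left out, moved without control library 3). The cytosolic chaperonin list gave 1 higher of 14 (0 to 7 higher and 0 lower with 1 library left out, moved without vehicle libraries 1, 2 or 3 or control libraries 1, 2 or 3). Among chromatin lists, histone genes gave 1 higher and 2 lower of 18, or 5.56% and 11.1% (1 to 2 higher and 0 to 2 lower with 1 library left out, moved without vehicle libraries 1, 2 or 3 or control libraries 1, 2 or 3). In the chromatin lists that follow, the share of higher calls was at or above the 12.0% of all genes. The list of deacetylases and remodelling factors had 14.6% higher and 10.1% lower, and all genes had 11.2% lower. The list of histone lysine methyltransferases and demethylases had 12.1% higher and 1.72% lower. Among 26 Polycomb genes, 5 were higher (19.2%, beside 12.0% of all genes) and 1 lower (1 to 5 higher and 0 to 1 lower with 1 library left out, moved without vehicle libraries 2 or 3 or control libraries 1 or 2). Deacetylases, acetyltransferases, DNA methylation and remodelling factors gave 13 higher and 9 lower of 89 (4 to 16 higher and 4 to 9 lower with 1 library left out, moved without vehicle libraries 2 or 3 or control libraries 1 or 2). Histone lysine methyltransferases and demethylases gave 7 higher and 1 lower of 58 (5 to 9 higher and 1 to 2 lower with 1 library left out, moved without control library 3). Kdm5a, a histone demethylase, had 10.3, 11.9 and 11.1 RPKM in TGFα lungs, against 7.53, 7.28 and 6.56 RPKM in control lungs (log2 fold change 0.57, SE 0.08, adjusted p = 0.00369). It did not overlap between the groups. A call that is missing in these lists does not show that the levels were equal. Psme4 and Hnrnpul1 lost the calls without vehicle libraries 2 or 3 or control libraries 1 or 2 (adjusted p = 0.0523 to 0.0949). Hnrnpa1 and Psmb10 lost the calls without vehicle libraries 2 or 3 or control libraries 1, 2 or 3 (adjusted p = 0.07 to 0.162). Hnrnpa1 also lost the call without a filter. Psmb10 also lost the call with a replicate block.

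**Figure D3:**
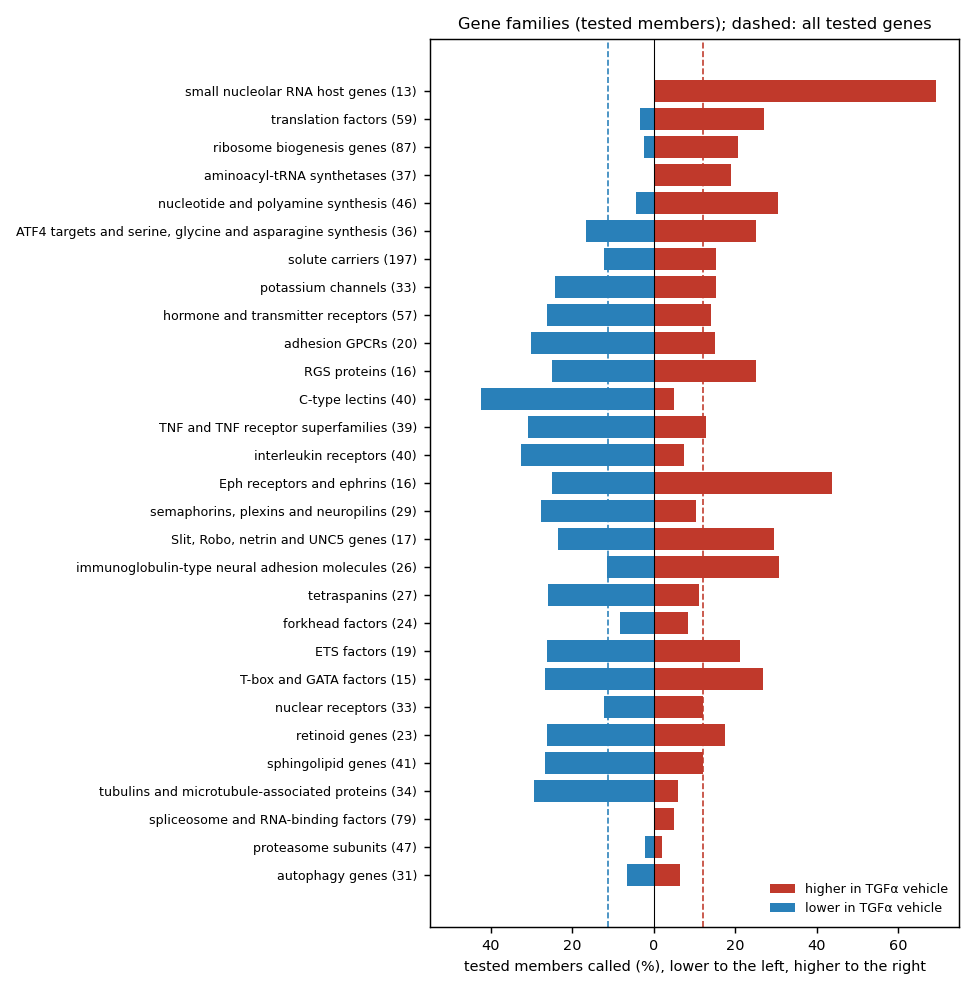
Share of tested members called higher (bars to the right) and lower (bars to the left) in TGFα lungs for the gene families, with the number tested in parentheses. Dashed lines mark the shares over all tested genes, 12.0% higher and 11.2% lower. Host genes of small nucleolar RNAs reach 69.2% higher and C-type lectins 42.5% lower.

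Ion and solute transport lists held a few large changes. Solute carriers as a whole gave 30 higher and 24 lower of 197 (13 to 35 higher and 10 to 31 lower with 1 library left out, moved without vehicle libraries 2 or 3 or control libraries 1 or 2), close to the background. Slc12a2, the sodium-potassium-chloride cotransporter NKCC1 that loads epithelia with chloride, had 53.7, 87.7 and 77.0 RPKM in TGFα lungs, against 22.6, 23.2 and 24.0 RPKM in control lungs (log2 fold change 1.58, SE 0.24, adjusted p = 0.00406). Cftr, the apical chloride channel of epithelia, had 14.3, 24.5 and 22.0 RPKM in TGFα lungs, against 6.79, 6.75 and 7.67 RPKM in control lungs (log2 fold change 1.37, SE 0.25, adjusted p = 0.0078). Trpv6, an epithelial calcium channel, had 4.09, 6.44 and 5.46 RPKM in TGFα lungs, against 1.77, 1.48 and 2.40 RPKM in control lungs (log2 fold change 1.13, SE 0.18, adjusted p = 0.00513). For all 3 the lowest TGFα lung was above the highest control lung and vehicle library 1 was the lowest of its group. Scnn1a, the alpha subunit of the epithelial sodium channel and the most abundant of the sodium, calcium and TRP channels, was not called, at 88.0, 76.0 and 75.2 RPKM in TGFα lungs, against 86.6, 85.7 and 64.4 RPKM in control lungs (log2 fold change 0.02, SE 0.16, adjusted p = 0.93). Its values overlapped between the groups. Slc34a2, the sodium-phosphate carrier of alveolar type 2 cells and the most abundant solute carrier, had 714, 711 and 693 RPKM in TGFα lungs, against 484, 423 and 528 RPKM in control lungs (log2 fold change 0.57, SE 0.17, adjusted p = 0.0418). Slc6a15, a carrier of neutral amino acids, had 3.49, 8.25 and 6.85 RPKM in TGFα lungs, against 1.44, 1.49 and 0.957 RPKM in control lungs (log2 fold change 1.59, SE 0.36, adjusted p = 0.0156). Slc6a15 lost the call without vehicle libraries 2 or 3 (adjusted p = 0.0639 to 0.0656). Slc34a2 lost the call without vehicle libraries 1, 2 or 3 or control libraries 1 or 2 (adjusted p = 0.0698 to 0.14). Slc34a2 also lost the call without a filter.

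Among carriers that fell, Slc4a1, the band 3 anion exchanger of red cells, had 0.330, 0.256 and 0.245 RPKM in TGFα lungs, against 3.19, 1.72 and 3.62 RPKM in control lungs (log2 fold change -1.55, SE 0.20, adjusted p = 0.00228). Slc7a10, a carrier of small neutral amino acids, had 5.26, 4.15 and 3.50 RPKM in TGFα lungs, against 17.9, 20.4 and 8.45 RPKM in control lungs (log2 fold change -1.57, SE 0.28, adjusted p = 0.00644). Aqp1, the water channel of lung endothelium and the most abundant aquaporin, had 268, 185 and 194 RPKM in TGFα lungs, against 469, 428 and 302 RPKM in control lungs (log2 fold change -0.88, SE 0.19, adjusted p = 0.0139). It was the 1 aquaporin called of 5. Car4, a membrane-bound carbonic anhydrase of lung capillaries, had 69.2, 69.9 and 67.4 RPKM in TGFα lungs, against 144, 152 and 126.3 RPKM in control lungs (log2 fold change -1.02, SE 0.19, adjusted p = 0.00763). All 4 stood apart between the groups, and for Aqp1 and Car4 control library 3 came nearest to the TGFα lungs. Aqp1 lost the call without vehicle libraries 2 or 3 or control libraries 1 or 2 (adjusted p = 0.0518 to 0.0615).

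Potassium channels gave 5 higher and 8 lower of 33 (3 to 5 higher and 2 to 8 lower with 1 library left out, moved without vehicle libraries 2 or 3 or control libraries 1 or 2). Kcnk5, a leak channel of the pH-sensitive TASK group, had 1.99, 2.18 and 2.05 RPKM in TGFα lungs, against 8.52, 7.63 and 5.06 RPKM in control lungs (log2 fold change -1.37, SE 0.16, adjusted p = 0.00173). Kcna2, a voltage-gated channel, had 0.917, 0.455 and 0.462 RPKM in TGFα lungs, against 3.47, 3.29 and 1.35 RPKM in control lungs (log2 fold change -1.16, SE 0.25, adjusted p = 0.0128). Other members moved the opposite way. Kcna3, the voltage-gated channel best known from T cells, had 2.89, 2.74 and 2.91 RPKM in TGFα lungs, against 0.423, 0.263 and 0.901 RPKM in control lungs (log2 fold change 1.35, SE 0.17, adjusted p = 0.0025). Kcnk1, a leak channel, had 11.8, 16.1 and 12.5 RPKM in TGFα lungs, against 5.91, 5.63 and 5.94 RPKM in control lungs (log2 fold change 1.07, SE 0.23, adjusted p = 0.0134). Among connexins, Gja1, the most widespread, was higher (log2 fold change 0.48, SE 0.14, adjusted p = 0.0421). Gja5, a connexin of arterial endothelium, had 9.23, 7.97 and 9.33 RPKM in TGFα lungs, against 26.1, 25.9 and 17.4 RPKM in control lungs (log2 fold change -1.27, SE 0.18, adjusted p = 0.003). Gja1 lost the call without vehicle libraries 2 or 3 or control libraries 1 or 2 (adjusted p = 0.117 to 0.146). Kcna2 lost the call without vehicle libraries 2 or 3 or control library 2 (adjusted p = 0.0517 to 0.0546). Kcnk1 lost the call without vehicle library 2 (adjusted p = 0.0578). Gja1 also lost the call with median-of-ratios scaling or with only the 6 libraries.

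Receptors for hormones and transmitters gave more calls down than up. Of 57 tested, 15 were called lower (26.3%, beside 11.2% of all genes) and 8 higher (14.0%) (4 to 9 higher and 10 to 18 lower with 1 library left out, moved without vehicle libraries 2 or 3 or control libraries 1 or 2), with a median of -0.08. Ramp2, the partner that makes the calcitonin receptor-like receptor into an adrenomedullin receptor, was the most abundant of the list, at 150.0, 96.3 and 99.8 RPKM in TGFα lungs, against 405, 411 and 235 RPKM in control lungs (log2 fold change -1.58, SE 0.24, adjusted p = 0.00406). Ednrb, the endothelin B receptor, had 4.71, 3.77 and 3.58 RPKM in TGFα lungs, against 19.99, 19.3 and 11.3 RPKM in control lungs (log2 fold change -1.797, SE 0.23, adjusted p = 0.0024). S1pr1, the sphingosine-1-phosphate receptor of endothelium and lymphocytes, had 92.6, 60.2 and 55.7 RPKM in TGFα lungs, against 229.7, 239 and 142 RPKM in control lungs (log2 fold change -1.54, SE 0.23, adjusted p = 0.00406). Mean levels of Ramp2, Ednrb and S1pr1 were 3.04-fold, 4.19-fold and 2.93-fold lower in TGFα lungs. In each of them control library 3 was the control lung nearest to the TGFα lungs, as it was for Cdh5 and Pecam1. Beside these, the endothelial markers Cdh5 and Pecam1 were lower by log2 fold changes of -1.08 and -0.92, and their part in these decreases was not tested. Ptger3, the EP3 receptor for prostaglandin E2, rose, with 2.42, 4.80 and 7.04 RPKM in TGFα lungs, against 0.914, 0.993 and 1.08 RPKM in control lungs (log2 fold change 1.44, SE 0.26, adjusted p = 0.00705). F2r, the thrombin receptor PAR1, chosen after its values were seen, had 197, 156 and 179 RPKM in TGFα lungs, against 101, 106 and 81.3 RPKM in control lungs (log2 fold change 0.88, SE 0.16, adjusted p = 0.00813).

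Sphingolipid genes gave 11 lower and 5 higher of 41 (1 to 6 higher and 6 to 12 lower with 1 library left out, moved without vehicle libraries 2 or 3 or control libraries 1 or 2). S1pr5, a receptor of natural killer cells for sphingosine-1-phosphate, had 0.839, 0.589 and 0.956 RPKM in TGFα lungs, against 3.599, 3.16 and 2.84 RPKM in control lungs (log2 fold change -1.23, SE 0.15, adjusted p = 0.00184). S1pr4, its relative on other leukocytes, had 6.44, 3.61 and 4.23 RPKM in TGFα lungs, against 10.4, 10.9 and 10.3 RPKM in control lungs (log2 fold change -1.03, SE 0.17, adjusted p = 0.00476). Spns2, the transporter that releases sphingosine-1-phosphate from endothelium, had 15.6, 15.2 and 15.8 RPKM in TGFα lungs, against 36.0, 39.96 and 25.9 RPKM in control lungs (log2 fold change -1.06, SE 0.14, adjusted p = 0.00255). All receptors and exporters of this lipid that were called were lower, and none of these 3 genes overlapped between the groups. The 5 called higher were all enzymes (Galc, Sphk1, Cers6, Sgpp2 and Kdsr). Galc lost the call without vehicle libraries 2 or 3 or control libraries 1 or 2 (adjusted p = 0.0654 to 0.0732). Sphk1 lost the call without vehicle libraries 1, 2 or 3 or control libraries 1, 2 or 3 (adjusted p = 0.0692 to 0.105). Sgpp2 and Kdsr lost the calls without vehicle library 2 (adjusted p = 0.0504 to 0.0571). Sphk1 also lost the call with median-of-ratios scaling or with the length correction.

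Adhesion receptors of the G protein-coupled class gave 6 lower and 3 higher of 20 (2 to 3 higher and 3 to 8 lower with 1 library left out, moved without vehicle libraries 2 or 3 or control libraries 1 or 2), and a median of -0.28. Cd97, a leukocyte receptor for CD55, had 114, 80.4 and 83.6 RPKM in TGFα lungs, against 260.3, 259 and 187 RPKM in control lungs (log2 fold change -1.34, SE 0.16, adjusted p = 0.00198). Emr4, an adhesion receptor of macrophages and eosinophils, had 0.723, 0.982 and 0.713 RPKM in TGFα lungs, against 5.16, 4.24 and 4.77 RPKM in control lungs (log2 fold change -1.66, SE 0.20, adjusted p = 0.00175). Gpr116, which restrains surfactant release by alveolar type 2 cells and also marks endothelium, was the most abundant, at 161, 112 and 119.7 RPKM in TGFα lungs, against 263, 237 and 162 RPKM in control lungs (log2 fold change -0.74, SE 0.20, adjusted p = 0.0324). Vehicle library 1 was the highest TGFα lung for Cd97 and Gpr116 and control library 3 the lowest control lung, and the 2 groups stayed apart. Among 31 orphan receptors, 8 were lower and 5 higher (2 to 4 higher and 4 to 8 lower with 1 library left out, moved without vehicle libraries 2 or 3 or control libraries 1 or 2). Gpr182, an atypical chemokine receptor of endothelium, had 6.05, 7.01 and 6.91 RPKM in TGFα lungs, against 24.3, 20.5 and 18.5 RPKM in control lungs (log2 fold change -1.52, SE 0.17, adjusted p = 0.00167). Gpr132, a receptor of leukocytes, had 1.85, 1.81 and 1.74 RPKM in TGFα lungs, against 3.68, 6.15 and 7.195 RPKM in control lungs (log2 fold change -1.22, SE 0.20, adjusted p = 0.00532). Gpr39, a zinc-sensing receptor, had 2.10, 3.35 and 4.67 RPKM in TGFα lungs, against 1.04, 1.30 and 1.05 RPKM in control lungs (log2 fold change 0.9955, SE 0.23, adjusted p = 0.0181). The groups did not overlap for any of these 6 receptors, which their choice among called genes favours. Gpr116 lost the call without vehicle libraries 2 or 3 or control libraries 1 or 2 (adjusted p = 0.105 to 0.119). Gpr39 lost the call without vehicle libraries 2 or 3 or control library 1 (adjusted p = 0.0604 to 0.0664). Gpr116 also lost the call with only the 6 libraries.

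RGS proteins, which shorten G protein signals, split evenly, with 4 higher and 4 lower of 16 (2 to 4 higher and 3 to 6 lower with 1 library left out, moved without vehicle libraries 2 or 3 or control libraries 1 or 2). Rgs5, a gene of pericytes, had 28.6, 18.8 and 19.6 RPKM in TGFα lungs, against 2.76, 3.57 and 2.94 RPKM in control lungs (log2 fold change 2.49, SE 0.39, adjusted p = 0.00447). Rgs4 had 47.1, 29.6 and 34.0 RPKM in TGFα lungs, against 12.01, 10.4 and 10.6 RPKM in control lungs (log2 fold change 1.63, SE 0.28, adjusted p = 0.00622). Rgs9 had 2.04, 1.31 and 1.57 RPKM in TGFα lungs, against 7.85, 6.28 and 6.22 RPKM in control lungs (log2 fold change -1.56, SE 0.13, adjusted p = 0.000736). Rgs6 had 0.929, 0.855 and 0.725 RPKM in TGFα lungs, against 2.95, 2.54 and 1.62 RPKM in control lungs (log2 fold change -0.86, SE 0.17, adjusted p = 0.00913). Rgs10, the most abundant, was higher (log2 fold change 0.61, SE 0.17, adjusted p = 0.0343). No TGFα lung overlapped a control lung for Rgs4, Rgs5, Rgs6 or Rgs9, and the 3 TGFα lungs had 18.8 to 28.6 RPKM of Rgs5. Arhgef1, a guanine exchange factor of leukocytes, had 43.1, 39.5 and 43.2 RPKM in TGFα lungs, against 62.8, 61.6 and 62.1 RPKM in control lungs (log2 fold change -0.56, SE 0.07, adjusted p = 0.00244). Arhgef38 had 3.23, 3.78 and 3.52 RPKM in TGFα lungs, against 1.03, 0.846 and 0.928 RPKM in control lungs (log2 fold change 1.22, SE 0.16, adjusted p = 0.00241). Rgs10 lost the call without vehicle libraries 2 or 3 or control libraries 1 or 2 (adjusted p = 0.109 to 0.124). Rgs10 also lost the call with only the 6 libraries.

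Among families of immune receptors most calls were down. C-type lectins, sugar-binding receptors of leukocytes and endothelium, had the lowest median among the lists described here, -0.62, with 17 lower and 2 higher (Colec12 and Mrc2) of 40 (1 to 3 higher and 10 to 20 lower with 1 library left out, moved without vehicle libraries 1, 2 or 3 or control libraries 1 or 2). Cd209f, a lectin of the DC-SIGN cluster, had 0.677, 0.552 and 0.573 RPKM in TGFα lungs, against 4.83, 5.42 and 7.94 RPKM in control lungs (log2 fold change -2.12, SE 0.21, adjusted p = 0.00123). Cd209a, of dendritic cells, had 3.33, 3.38 and 3.25 RPKM in TGFα lungs, against 8.66, 10.4 and 8.80 RPKM in control lungs (log2 fold change -1.25, SE 0.18, adjusted p = 0.00325). Reads of the near-identical Cd209 genes may be split among them. Klrd1, the CD94 chain of natural killer cells, had 4.77, 3.39 and 3.43 RPKM in TGFα lungs, against 16.6, 12.5 and 8.39 RPKM in control lungs (log2 fold change -1.44, SE 0.24, adjusted p = 0.00543). Of the other 16, 6 were also killer cell lectin-like receptors. Clec3b, the plasminogen-binding protein tetranectin, had 59.3, 39.8 and 39.6 RPKM in TGFα lungs, against 138, 173 and 103 RPKM in control lungs (log2 fold change -1.55, SE 0.22, adjusted p = 0.00327). Each of the 4 was lower in every TGFα lung than in any control lung. Colec12 lost the call without vehicle libraries 1, 2 or 3 or control libraries 1, 2 or 3 (adjusted p = 0.0651 to 0.121). Colec12 also lost the call with median-of-ratios scaling.

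Interleukin receptors gave 13 lower and 3 higher of 40 (1 to 4 higher and 5 to 8 lower with 1 library left out, moved without vehicle libraries 1, 2 or 3 or control libraries 1, 2 or 3), and the TNF superfamily and its receptors 12 lower and 5 higher of 39 (3 to 5 higher and 9 to 11 lower with 1 library left out, moved without vehicle libraries 2 or 3 or control libraries 1 or 2), with medians of -0.29 and -0.39. Il2rb, a receptor chain shared by several interleukins of lymphocytes, had 2.61, 2.66 and 2.44 RPKM in TGFα lungs, against 8.51, 7.38 and 11.4 RPKM in control lungs (log2 fold change -1.48, SE 0.14, adjusted p = 0.00106). Il7r, the interleukin 7 receptor of lymphocytes, had 8.44, 5.84 and 6.02 RPKM in TGFα lungs, against 14.3, 13.1 and 29.8 RPKM in control lungs (log2 fold change -1.29, SE 0.29, adjusted p = 0.0159). Csf3r, the granulocyte colony-stimulating factor receptor of neutrophils, had 5.74, 4.35 and 4.19 RPKM in TGFα lungs, against 14.6, 15.4 and 17.1 RPKM in control lungs (log2 fold change -1.54, SE 0.20, adjusted p = 0.00255). These 3 receptors are carried by lymphocytes and neutrophils, and all were separate between the groups, which their choice among called genes favours. Tnfsf13b, the B cell survival factor BAFF, had 10.5, 5.84 and 8.55 RPKM in TGFα lungs, against 24.7, 28.2 and 25.3 RPKM in control lungs (log2 fold change -1.57, SE 0.18, adjusted p = 0.00173). Tnfrsf13c, the receptor for it on B cells, had 0.901, 0.868 and 0.973 RPKM in TGFα lungs, against 2.90, 2.81 and 4.28 RPKM in control lungs (log2 fold change -1.16, SE 0.20, adjusted p = 0.00553). Eda2r, a receptor for ectodysplasin A2 and a known p53 target, went the other way, with 2.27, 2.63 and 3.10 RPKM in TGFα lungs, against 0.631, 0.583 and 0.795 RPKM in control lungs (log2 fold change 1.13, SE 0.15, adjusted p = 0.00256). Ifngr1, the most abundant interleukin or interferon receptor of the list, and Tnfrsf1a, the most abundant TNF receptor, were not called (log2 fold changes 0.00 and 0.07, adjusted p = 0.991 and 0.597). Il7r lost the call without vehicle libraries 2 or 3 (adjusted p = 0.0634 to 0.0644).

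Axon guidance families, which also steer vessels and epithelium, held calls in both directions. Among 16 Eph receptors and ephrins, 7 were higher (43.8%) and 4 lower (1 to 6 higher and 1 to 4 lower with 1 library left out, moved without vehicle libraries 2 or 3 or control libraries 1, 2 or 3), with a median of 0.40. Efnb2, the ephrin of arterial endothelium and the most abundant member, had 31.8, 26.8 and 23.8 RPKM in TGFα lungs, against 91.2, 90.1 and 48.9 RPKM in control lungs (log2 fold change -1.40, SE 0.22, adjusted p = 0.00471). Ephb4, the venous receptor for it, was lower as well (log2 fold change -0.49, SE 0.10, adjusted p = 0.0125; chosen after its values were seen). Efnb1 had 33.2, 29.5 and 32.4 RPKM in TGFα lungs, against 61.5, 56.4 and 36.2 RPKM in control lungs (log2 fold change -0.65, SE 0.17, adjusted p = 0.0285). Epha2 had 13.2, 17.9 and 15.9 RPKM in TGFα lungs, against 29.3, 27.7 and 18.7 RPKM in control lungs (log2 fold change -0.64, SE 0.19, adjusted p = 0.0384). For Efnb1 and Epha2, control library 3 came within a few RPKM of the TGFα lungs. Efna4, an ephrin tethered to the membrane by a lipid anchor, had 2.96, 5.33 and 5.94 RPKM in TGFα lungs, against 1.94, 1.58 and 2.22 RPKM in control lungs (log2 fold change 0.94, SE 0.22, adjusted p = 0.0172). Ephb2, chosen after its values were seen, had 2.14, 1.45 and 1.91 RPKM in TGFα lungs, against 0.287, 0.501 and 0.268 RPKM in control lungs (log2 fold change 1.07, SE 0.14, adjusted p = 0.0025). The called members higher in TGFα lungs were Efna3, Efna4, Epha3, Epha7, Ephb2, Ephb3 and Ephb6. Efna3 lost the call without vehicle libraries 1, 2 or 3 or control libraries 1 or 3 (adjusted p = 0.0565 to 0.106). Efna4 and Efnb1 lost the calls without vehicle libraries 2 or 3 or control libraries 1 or 2 (adjusted p = 0.0526 to 0.101). Epha2 lost the call without vehicle libraries 1, 2 or 3 or control libraries 1 or 2 (adjusted p = 0.0653 to 0.124). Epha3 lost the call without vehicle libraries 2 or 3 or control library 1 (adjusted p = 0.0503 to 0.0973). Epha7 lost the call without vehicle library 3 (adjusted p = 0.0582). Ephb3 and Ephb6 lost the calls without vehicle libraries 2 or 3 or control libraries 1, 2 or 3 (adjusted p = 0.0553 to 0.158). Ephb4 lost the call without vehicle libraries 2 or 3 (adjusted p = 0.0541 to 0.0578). Efna3 and Efnb1 also lost the calls with only the 6 libraries. Epha2 also lost the call with only the 6 libraries or with a replicate block. Ephb6 also lost the call without a filter, with median-of-ratios scaling, with only the 6 libraries or with a replicate block.

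Semaphorins, plexins and neuropilins gave 8 lower and 3 higher of 29 (0 to 2 higher and 4 to 10 lower with 1 library left out, moved without vehicle libraries 2 or 3 or control libraries 1 or 2). Sema3g, a secreted semaphorin of arterial endothelium, had 41.4, 20.2 and 22.7 RPKM in TGFα lungs, against 81.1, 74.6 and 54.9 RPKM in control lungs (log2 fold change -1.34, SE 0.25, adjusted p = 0.00796). Plxna1, a plexin that signals for semaphorins, had 17.7, 18.0 and 18.9 RPKM in TGFα lungs, against 41.1, 38.0 and 31.9 RPKM in control lungs (log2 fold change -0.98, SE 0.13, adjusted p = 0.00266). Sema5a rose, with 11.2, 7.39 and 9.21 RPKM in TGFα lungs, against 4.53, 4.66 and 3.02 RPKM in control lungs (log2 fold change 1.02, SE 0.26, adjusted p = 0.0245). Sema3c, the most abundant, was not called, at 140.4, 66.2 and 79.0 RPKM in TGFα lungs, against 179, 139 and 98.0 RPKM in control lungs (log2 fold change -0.57, SE 0.29, adjusted p = 0.189). Sema3g and Plxna1 were lower in all 3 TGFα lungs than in any control lung. Of 17 Slit, Robo, netrin and UNC5 genes, 5 were higher and 4 lower (0 to 4 higher and 1 to 5 lower with 1 library left out, moved without vehicle libraries 2 or 3 or control libraries 1, 2 or 3). Unc5b, a netrin receptor, had 23.2, 21.7 and 27.1 RPKM in TGFα lungs, against 9.18, 9.23 and 8.77 RPKM in control lungs (log2 fold change 1.31, SE 0.27, adjusted p = 0.0119). Robo4, the endothelial roundabout receptor that binds it, had 11.3, 9.60 and 10.3 RPKM in TGFα lungs, against 24.8, 23.8 and 17.3 RPKM in control lungs (log2 fold change -0.998, SE 0.13, adjusted p = 0.00262). Ntn4, a netrin of basement membranes and the most abundant of the list, had 24.4, 18.0 and 18.9 RPKM in TGFα lungs, against 44.7, 43.1 and 25.8 RPKM in control lungs (log2 fold change -0.83, SE 0.20, adjusted p = 0.0205). Unc5b lost the call without vehicle library 3 (adjusted p = 0.0523). Sema5a lost the call without vehicle libraries 1 or 3 or control libraries 1, 2 or 3 (adjusted p = 0.0539 to 0.0795). Ntn4 lost the call without vehicle libraries 2 or 3 or control libraries 1 or 2 (adjusted p = 0.0726 to 0.0813).

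Of 26 cell adhesion molecules first known from the nervous system, 8 were higher (30.8%) and 3 lower (4 to 6 higher and 0 to 4 lower with 1 library left out, moved without vehicle libraries 2 or 3 or control libraries 1 or 2). Lrrn2, a leucine-rich repeat membrane protein, had 5.69, 5.05 and 5.61 RPKM in TGFα lungs, against 0.587, 0.676 and 0.530 RPKM in control lungs (log2 fold change 2.01, SE 0.28, adjusted p = 0.00301). Ncam1, the neural cell adhesion molecule, had 3.44, 2.77 and 4.102 RPKM in TGFα lungs, against 0.315, 0.370 and 0.175 RPKM in control lungs (log2 fold change 1.78, SE 0.26, adjusted p = 0.00372). Islr, a leucine-rich repeat protein of mesenchymal cells, had 22.8, 17.5 and 23.02 RPKM in TGFα lungs, against 6.77, 7.77 and 5.39 RPKM in control lungs (log2 fold change 1.53, SE 0.27, adjusted p = 0.00629). Cadm1, the most abundant of the list, was not called (log2 fold change -0.42, SE 0.22, adjusted p = 0.208). Of 17 neurotrophic factors and receptors 4 were higher, Ntrk2, Nrtn and Ntf5 among them, and Bdnf was lower (1 to 4 higher and 0 to 3 lower with 1 library left out, moved without vehicle libraries 2 or 3 or control libraries 1, 2 or 3). Nrtn, neurturin, had 3.62, 3.53 and 4.87 RPKM in TGFα lungs, against 1.92, 2.46 and 1.79 RPKM in control lungs (log2 fold change 0.71, SE 0.14, adjusted p = 0.00993). Beside these, of 5 tested Schwann and neuronal markers none was higher and 1, Stmn2, was lower, and the sum over the 10 measured was 34.8, 33.5 and 32.4 RPKM in TGFα lungs, against 56.8, 54.2 and 40.2 RPKM in control lungs. Bdnf lost the call without vehicle libraries 1, 2 or 3 or control libraries 1 or 2 (adjusted p = 0.0684 to 0.114). Stmn2 lost the call without vehicle libraries 2 or 3 (adjusted p = 0.0504 to 0.0513). Ntf5 lost the call without vehicle libraries 2 or 3 or control libraries 1 or 2 (adjusted p = 0.0769 to 0.101). Bdnf also lost the call with a replicate block.

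Among 37 cadherins 5 were lower and 2 higher (Cdh11 and Fat1, with 0 to 3 higher and 3 to 6 lower with 1 library left out, moved without vehicle libraries 2 or 3 or control libraries 1 or 2). That is 13.5% lower and 5.41% higher, beside 11.2% and 12.0% of all genes. Tetraspanins gave 7 lower and 3 higher of 27 (1 to 4 higher and 4 to 10 lower with 1 library left out, moved without vehicle libraries 2 or 3 or control library 2). Cdh13, a cadherin with a lipid anchor that binds adiponectin, had 2.04, 1.04 and 1.13 RPKM in TGFα lungs, against 8.60, 8.49 and 4.67 RPKM in control lungs (log2 fold change -1.76, SE 0.25, adjusted p = 0.003). Pcdh1, a protocadherin of airway epithelium and endothelium, had 22.1, 16.4 and 18.9 RPKM in TGFα lungs, against 65.3, 58.5 and 45.4 RPKM in control lungs (log2 fold change -1.51, SE 0.17, adjusted p = 0.00166). Tspan7 had 128, 79.0 and 82.1 RPKM in TGFα lungs, against 401, 398 and 251 RPKM in control lungs (log2 fold change -1.85, SE 0.24, adjusted p = 0.00263). Tspan13 had 64.1, 49.6 and 46.4 RPKM in TGFα lungs, against 166, 165 and 111 RPKM in control lungs (log2 fold change -1.44, SE 0.18, adjusted p = 0.00203). Cd9, the most abundant tetraspanin, was not called, at 352, 353 and 348 RPKM in TGFα lungs, against 299, 324 and 437 RPKM in control lungs (log2 fold change 0.01, SE 0.14, adjusted p = 0.972). Cdh13, Pcdh1, Tspan7 and Tspan13 did not overlap between the groups, which their choice among called genes favours. Cdh11 lost the call without vehicle libraries 2 or 3 (adjusted p = 0.0571 to 0.0824). Fat1 lost the call without vehicle libraries 2 or 3 or control library 2 (adjusted p = 0.0552 to 0.0728).

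**Figure D4:**
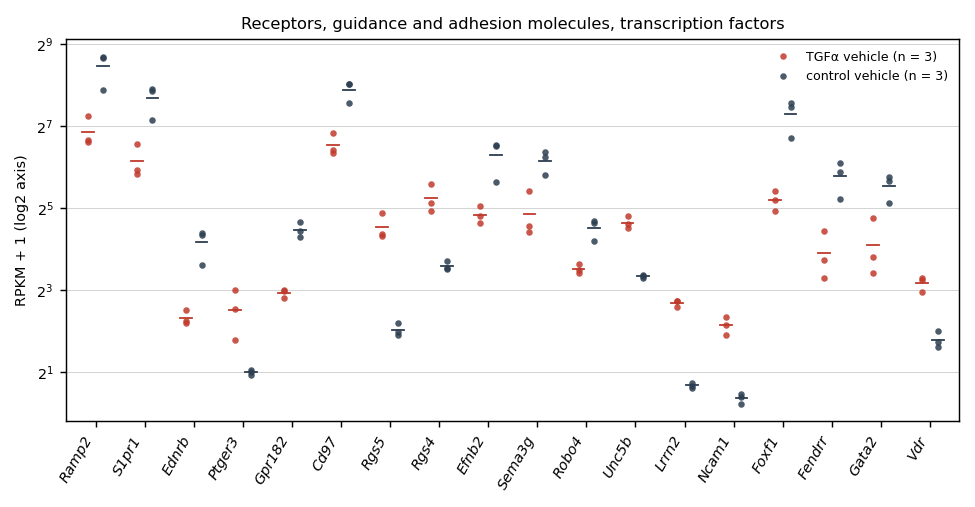
RPKM + 1 on a log2 axis for receptors, RGS proteins, guidance and adhesion genes and transcription factors. Points are libraries, short bars are group means, and TGFα lungs stand left of control lungs. Ramp2, S1pr1, Ednrb, Gpr182, Cd97, Efnb2, Sema3g, Robo4, Foxf1, Fendrr and Gata2 are lower in TGFα lungs, and Ptger3, Rgs5, Rgs4, Unc5b, Lrrn2, Ncam1 and Vdr are higher.

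Among transcription factors the most marked decrease outside the usual lists was at the Foxf1 locus. Foxf1, a forkhead factor of lung mesenchyme and capillary endothelium, had 41.4, 35.6 and 29.4 RPKM in TGFα lungs, against 189, 174 and 103 RPKM in control lungs (log2 fold change -2.07, SE 0.24, adjusted p = 0.00173), 4.39-fold lower in TGFα lungs on average. Fendrr, a long noncoding RNA that is read away from Foxf1 in the opposite direction, had 20.5, 8.85 and 12.2 RPKM in TGFα lungs, against 67.6, 58.2 and 36.0 RPKM in control lungs (log2 fold change -1.92, SE 0.31, adjusted p = 0.00489), 3.89-fold lower. In RefSeq (GRCm38.p6) Fendrr lies on chromosome 8, bases 121054882 to 121083110, and Foxf1 on chromosome 8, bases 121084386 to 121088154, so that 1276 bases separate them. Both fell in every TGFα lung, and control library 3 was the lowest control lung for both. Of 5 other genes of the region none was called, and their log2 fold changes were -0.52 for Irf8 (adjusted p = 0.055), -0.09 for Mthfsd (0.668), -0.18 for Foxc2 (0.396), 0.77 for Foxl1 (0.0591) and 0.40 for Fbxo31 (0.103). Of 24 forkhead genes in all, 2 were lower (Foxf1 and Foxj1, the factor of motile cilia, log2 fold change -1.21, SE 0.23, adjusted p = 0.00865) and 2 higher (Foxq1 and Foxo6, with 0 to 5 higher and 2 to 3 lower with 1 library left out, moved without vehicle libraries 1, 2 or 3 or control libraries 1, 2 or 3). Each share was 8.33%, beside 11.2% lower and 12.0% higher of all genes. Foxq1 lost the call without vehicle libraries 2 or 3 or control libraries 1, 2 or 3 (adjusted p = 0.0624 to 0.143). Foxo6 lost the call without vehicle library 2 or control library 2 (adjusted p = 0.0615 to 0.0667).

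Other families of factors split by member. ETS factors gave 4 higher and 5 lower of 19 (0 to 3 higher and 3 to 7 lower with 1 library left out, moved without vehicle libraries 2 or 3 or control libraries 1, 2 or 3). Elf5, an epithelial ETS factor, had 13.7, 28.6 and 24.1 RPKM in TGFα lungs, against 6.62, 7.54 and 4.08 RPKM in control lungs (log2 fold change 1.68, SE 0.42, adjusted p = 0.0224). Ehf, another, had 18.2, 24.5 and 22.3 RPKM in TGFα lungs, against 7.63, 7.85 and 15.8 RPKM in control lungs (log2 fold change 1.05, SE 0.29, adjusted p = 0.0339). Fli1, of endothelium and blood cells, had 11.8, 8.68 and 9.48 RPKM in TGFα lungs, against 24.99, 19.99 and 19.04 RPKM in control lungs (log2 fold change -1.02, SE 0.16, adjusted p = 0.00447). Spib, of B cells and plasmacytoid dendritic cells, had 1.58, 2.29 and 2.13 RPKM in TGFα lungs, against 7.54, 6.10 and 15.3 RPKM in control lungs (log2 fold change -1.74, SE 0.28, adjusted p = 0.00492). None of these 4 overlapped between the groups, which their choice among called genes favours. Ehf lost the call without vehicle libraries 2 or 3 or control libraries 1 or 2 (adjusted p = 0.103 to 0.118). Elf5 lost the call without vehicle libraries 2 or 3 or control libraries 1 or 3 (adjusted p = 0.053 to 0.0885).

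T-box and GATA factors gave 4 higher and 4 lower of 15 (2 to 4 higher and 1 to 7 lower with 1 library left out, moved without vehicle library 3 or control library 3). Gata4 had 2.01, 3.00 and 3.17 RPKM in TGFα lungs, against 0.894, 1.07 and 0.557 RPKM in control lungs (log2 fold change 1.013, SE 0.17, adjusted p = 0.00533). Gata2, of endothelium and mast cells, had 25.8, 9.63 and 12.9 RPKM in TGFα lungs, against 53.3, 49.2 and 33.7 RPKM in control lungs (log2 fold change -1.52, SE 0.32, adjusted p = 0.0123). Tbx3 had 24.3, 14.2 and 15.6 RPKM in TGFα lungs, against 46.0, 36.2 and 31.3 RPKM in control lungs (log2 fold change -1.05, SE 0.20, adjusted p = 0.00903). Gata4, Gata2 and Tbx3 were separate between the groups, which their choice among called genes favours. Homeobox genes outside the HOX clusters gave 7 higher and 2 lower of 38 (0 to 6 higher and 1 to 3 lower with 1 library left out, moved without vehicle libraries 1, 2 or 3 or control libraries 1 or 2), and Prrx2, a paired-related factor of mesenchyme, had 4.37, 4.39 and 4.93 RPKM in TGFα lungs, against 1.26, 1.26 and 0.523 RPKM in control lungs (log2 fold change 1.49, SE 0.33, adjusted p = 0.0152). HOX genes gave 1 higher and 1 lower of 13 (0 higher and 1 to 2 lower with 1 library left out, moved without vehicle libraries 1, 2 or 3 or control libraries 1, 2 or 3), and Hoxb5 fell, with 5.32, 3.59 and 4.83 RPKM in TGFα lungs, against 11.9, 12.2 and 7.57 RPKM in control lungs (log2 fold change -1.04, SE 0.18, adjusted p = 0.00629). Gata2 lost the call without vehicle library 3 (adjusted p = 0.0532). Prrx2 lost the call without vehicle libraries 2 or 3 (adjusted p = 0.0522 to 0.0597).

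Nuclear receptors gave 4 higher and 4 lower of 33, at the background share (2 to 6 higher and 2 to 6 lower with 1 library left out, moved without vehicle libraries 2 or 3 or control libraries 1 or 2). Vdr, the vitamin D receptor, had 6.80, 8.82 and 8.46 RPKM in TGFα lungs, against 2.04, 2.35 and 2.99 RPKM in control lungs (log2 fold change 1.39, SE 0.13, adjusted p = 0.00103). Nr1d2, REV-ERB beta of the circadian clock, had 47.2, 40.6 and 39.1 RPKM in TGFα lungs, against 17.4, 16.2 and 15.8 RPKM in control lungs (log2 fold change 1.31, SE 0.11, adjusted p = 0.000736). Nr4a3, an orphan receptor induced by many stimuli, had 0.864, 1.91 and 1.11 RPKM in TGFα lungs, against 4.91, 7.09 and 3.62 RPKM in control lungs (log2 fold change -1.42, SE 0.25, adjusted p = 0.00664). Rara, retinoic acid receptor alpha, had 11.6, 10.3 and 10.2 RPKM in TGFα lungs, against 17.5, 16.4 and 17.1 RPKM in control lungs (log2 fold change -0.62, SE 0.09, adjusted p = 0.0035). No TGFα lung overlapped a control lung for Vdr, Nr1d2, Nr4a3 or Rara, which their choice among called genes favours. Dbp, a clock output factor and one of the 15 largest increases, had 27.6, 21.1 and 16.7 RPKM in TGFα lungs, against 3.61, 4.12 and 3.20 RPKM in control lungs (log2 fold change 2.27, SE 0.22, adjusted p = 0.00106). Of other clock genes, chosen after their values were seen, Per3, Hlf and Tef were higher (log2 fold changes 1.38, 1.32 and 0.81) and Arntl, Npas2 and Ciart lower (-0.61, -0.76 and -1.07), while Per1, Per2, Cry1, Cry2, Clock and Nr1d1 were not called. The hour at which the lungs were taken is not given in the sources used here, so its part was not tested. Arntl lost the call without vehicle libraries 1 or 2 or control libraries 1 or 2 (adjusted p = 0.0808 to 0.113). Tef lost the call without vehicle library 2 or control library 2 (adjusted p = 0.0515 to 0.0599). Ciart lost the call without vehicle libraries 2 or 3 or control libraries 1 or 2 (adjusted p = 0.0816 to 0.0915).

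Retinoid genes, which carry, make, read and degrade vitamin A and its acid, gave 6 lower and 4 higher of 23 (1 to 6 higher and 2 to 6 lower with 1 library left out, moved without vehicle libraries 2 or 3 or control library 1). Crabp1, a carrier of retinoic acid inside cells, had 0.468, 0.993 and 0.661 RPKM in TGFα lungs, against 9.12, 6.12 and 2.36 RPKM in control lungs (log2 fold change -1.88, SE 0.35, adjusted p = 0.00771). Aldh1a1, which makes retinoic acid and was the most abundant of the list, had 313, 167 and 188 RPKM in TGFα lungs, against 485, 524 and 339.9 RPKM in control lungs (log2 fold change -1.04, SE 0.25, adjusted p = 0.02). Cyp26b1, which degrades it, had 4.77, 3.35 and 1.88 RPKM in TGFα lungs, against 15.5, 6.74 and 11.3 RPKM in control lungs (log2 fold change -1.48, SE 0.44, adjusted p = 0.0418). Rbp7, a carrier of retinol, moved the other way, with 3.79, 4.23 and 3.12 RPKM in TGFα lungs, against 0.501, 0.762 and 0.398 RPKM in control lungs (log2 fold change 1.602, SE 0.35, adjusted p = 0.0139). Stra6, a receptor that takes up retinol, was among those higher. Aldh1a1 lost the call without vehicle libraries 2 or 3 or control libraries 1 or 2 (adjusted p = 0.069 to 0.08). Cyp26b1 lost the call without vehicle libraries 2 or 3 or control libraries 1 or 3 (adjusted p = 0.0779 to 0.145). Rbp7 lost the call without vehicle library 2 (adjusted p = 0.0574). Cyp26b1 also lost the call with a replicate block.

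Lipid handling genes gave 8 higher and 3 lower of 43 (2 to 9 higher and 1 to 5 lower with 1 library left out, moved without vehicle libraries 1, 2 or 3 or control libraries 1 or 2). These shares were 18.6% and 6.98%, beside 12.0% and 11.2% of all genes. Apoc1, an apolipoprotein, had 63.9, 66.4 and 60.6 RPKM in TGFα lungs, against 21.0, 22.6 and 25.4 RPKM in control lungs (log2 fold change 1.43, SE 0.13, adjusted p = 0.000948). Apoe, which lies beside it in the genome and was the most abundant of the list, had 709.6, 499 and 590.2 RPKM in TGFα lungs, against 239, 252 and 337 RPKM in control lungs (log2 fold change 1.12, SE 0.35, adjusted p = 0.0473). Pltp, the phospholipid transfer protein, fell, with 104, 75.5 and 72.8 RPKM in TGFα lungs, against 219, 198 and 159 RPKM in control lungs (log2 fold change -1.19, SE 0.17, adjusted p = 0.00304). Apoe differed more between libraries than Apoc1 did, and neither overlapped between the groups. Phospholipases gave 5 higher and 0 lower of 34 (2 to 6 higher and 0 to 1 lower with 1 library left out, moved without vehicle libraries 2 or 3 or control libraries 1, 2 or 3). The share higher was 14.7%, near the 12.0% of all genes. Pla2g4a, the cytosolic enzyme that releases arachidonic acid, had 14.3, 17.1 and 19.3 RPKM in TGFα lungs, against 7.08, 8.43 and 10.3 RPKM in control lungs (log2 fold change 0.90, SE 0.18, adjusted p = 0.00999). Pla2g1b, a secreted phospholipase, had 41.4, 53.4 and 43.3 RPKM in TGFα lungs, against 20.04, 21.5 and 23.4 RPKM in control lungs (log2 fold change 1.05, SE 0.24, adjusted p = 0.0181). Heparan and chondroitin sulfate enzymes gave 7 lower and 4 higher of 42 (1 to 5 higher and 3 to 7 lower with 1 library left out, moved without vehicle libraries 2 or 3 or control libraries 1 or 2). That is 16.7% lower and 9.52% higher, beside 11.2% and 12.0% of all genes. Chst1, a keratan sulfotransferase, had 6.14, 3.75 and 4.70 RPKM in TGFα lungs, against 14.3, 13.1 and 9.80 RPKM in control lungs (log2 fold change -1.20, SE 0.17, adjusted p = 0.00325). Dsel, an epimerase that makes dermatan sulfate, had 12.3, 8.08 and 9.42 RPKM in TGFα lungs, against 4.14, 4.21 and 3.38 RPKM in control lungs (log2 fold change 1.14, SE 0.24, adjusted p = 0.0115). Apoe lost the call without vehicle libraries 1, 2 or 3 or control libraries 1 or 2 (adjusted p = 0.0895 to 0.133). Pla2g1b lost the call without vehicle libraries 2 or 3 or control libraries 1 or 2 (adjusted p = 0.0562 to 0.0739). Apoe also lost the call without a filter, with median-of-ratios scaling, with a replicate block or with the length correction.

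Among secreted proteases and their inhibitors, Pappa, which frees insulin-like growth factors by cutting a binding protein, had 3.50, 2.35 and 2.43 RPKM in TGFα lungs, against 0.415, 0.363 and 0.514 RPKM in control lungs (log2 fold change 1.38, SE 0.14, adjusted p = 0.00111). Prss23, a serine protease of endothelium, had 13.6, 13.7 and 12.7 RPKM in TGFα lungs, against 39.0, 38.6 and 40.2 RPKM in control lungs (log2 fold change -1.49, SE 0.10, adjusted p = 0.00033). Of 48 membrane and secreted peptidases 6 were higher and 4 lower (2 to 6 higher and 2 to 6 lower with 1 library left out, moved without vehicle libraries 2 or 3 or control libraries 1 or 2). Of 23 serpins 3 were higher and 4 lower (1 to 6 higher and 2 to 6 lower with 1 library left out, moved without vehicle libraries 2 or 3 or control libraries 2 or 3). Shares higher and lower were 12.5% and 8.33% for peptidases and 13% and 17.4% for serpins. All genes had 12.0% and 11.2%. Serpina3f and Serpina3g, near-identical members of a cluster whose reads may be split, had log2 fold changes of -1.52 and -1.54 (adjusted p = 0.00296 and 0.00517). S100 proteins, small calcium-binding proteins, gave 5 lower and 1 higher of 13 (1 higher and 0 to 5 lower with 1 library left out, moved without vehicle libraries 2 or 3 or control libraries 1 or 2). The higher one was S100b, a protein of glia and fat, with 2.29, 5.42 and 7.21 RPKM in TGFα lungs, against 0.251, 1.09 and 0.640 RPKM in control lungs (log2 fold change 1.78, SE 0.32, adjusted p = 0.00714). S100a8 and S100a9, the neutrophil pair that forms calprotectin, fell together. S100a8 had 69.3, 57.2 and 55.4 RPKM in TGFα lungs, against 144, 197 and 149 RPKM in control lungs (log2 fold change -1.41, SE 0.33, adjusted p = 0.0176). S100a9 had 40.1, 33.1 and 31.05 RPKM in TGFα lungs, against 81.1, 106 and 75.4 RPKM in control lungs (log2 fold change -1.30, SE 0.30, adjusted p = 0.0177). Annexins, proteins that bind phospholipid with calcium, gave 3 lower and 0 higher of 10 (0 higher and 2 to 3 lower with 1 library left out). Anxa5 had 179, 168 and 186 RPKM in TGFα lungs, against 249.7, 244 and 273 RPKM in control lungs (log2 fold change -0.52, SE 0.09, adjusted p = 0.00622). S100a8 and S100a9 lost the calls without vehicle libraries 2 or 3 or control library 2 (adjusted p = 0.0653 to 0.0696).

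Calca, the gene of calcitonin and of the calcitonin gene-related peptide that neuroendocrine and nerve cells release, had 5.85, 9.82 and 8.27 RPKM in TGFα lungs, against 0.466, 2.03 and 0.819 RPKM in control lungs (log2 fold change 2.14, SE 0.26, adjusted p = 0.00198). In the pirfenidone lungs it stood at 12.4, 13.7 and 12.7 RPKM. Calca was also on the list of oesophagus, thyroid and squamous markers. In the cytoskeletal lists most calls were down, beside 11.2% of all genes called lower. Actin assembly regulators gave 6 lower and 2 higher of 62 (0 to 5 higher and 2 to 8 lower with 1 library left out, moved without vehicle libraries 2 or 3 or control libraries 1, 2 or 3). Kinesins and dyneins gave 5 lower and 2 higher of 46 (2 to 3 higher and 2 to 9 lower, moved without the same libraries). Their shares lower were 9.68% and 10.9%, against 29.4% and 36.4% for the lists that follow. Tubulins and microtubule-associated proteins gave 10 lower and 2 higher of 34 (0 to 4 higher and 4 to 11 lower with 1 library left out, moved without vehicle libraries 1, 2 or 3 or control libraries 1 or 2), and septins 4 lower and 0 higher of 11 (0 higher and 1 to 4 lower with 1 library left out, moved without vehicle libraries 2 or 3 or control libraries 1 or 2). Tppp3, which bundles microtubules, had 120.1, 86.9 and 80.4 RPKM in TGFα lungs, against 255, 314 and 225 RPKM in control lungs (log2 fold change -1.46, SE 0.17, adjusted p = 0.00173). Its relative Tppp had 3.63, 3.01 and 2.19 RPKM in TGFα lungs, against 10.1, 11.4 and 6.30 RPKM in control lungs (log2 fold change -1.36, SE 0.20, adjusted p = 0.00388). Tppp3 is known from ciliated cells, and Foxj1 and Dynlrb2 of motile cilia were lower beside it (-1.21 and -0.93 on the log2 scale), and their part was not tested. Septin1, of leukocytes, had 8.31, 7.08 and 8.28 RPKM in TGFα lungs, against 15.8, 14.0 and 19.7 RPKM in control lungs (log2 fold change -0.97, SE 0.13, adjusted p = 0.00288). Klc3, a kinesin light chain, rose, with 4.06, 5.23 and 5.59 RPKM in TGFα lungs, against 1.94, 1.51 and 2.18 RPKM in control lungs (log2 fold change 1.05, SE 0.14, adjusted p = 0.00262).

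Genes that act on cell growth and arrest showed no single direction: of 33 p53 targets and arrest genes, 6 were higher and 4 lower (4 to 7 higher and 1 to 5 lower with 1 library left out, moved without vehicle libraries 2 or 3 or control library 2). These shares were 18.2% and 12.1%, beside 12.0% and 11.2% of all genes. Cdkn2a, whose products p16 and p19 halt the cell cycle and stabilise p53, had 11.8, 18.0 and 18.5 RPKM in TGFα lungs, against 5.60, 3.81 and 3.38 RPKM in control lungs (log2 fold change 1.70, SE 0.33, adjusted p = 0.00896). Sesn3, a sestrin that restrains mTORC1, had 10.6, 16.6 and 16.8 RPKM in TGFα lungs, against 4.52, 3.89 and 5.12 RPKM in control lungs (log2 fold change 1.49, SE 0.18, adjusted p = 0.00189). Pmaip1, the cell death factor Noxa, had 9.04, 4.43 and 5.63 RPKM in TGFα lungs, against 10.4, 14.9 and 12.4 RPKM in control lungs (log2 fold change -0.91, SE 0.24, adjusted p = 0.0284). Cdkn2a and Sesn3 were clearly apart between the groups, while for Pmaip1 vehicle library 1 came close to the lowest control lung. F-box and KLHL proteins, adaptors of ubiquitin ligases, gave 14 higher and 6 lower of 92 (6 to 16 higher and 1 to 8 lower with 1 library left out, moved without vehicle libraries 2 or 3 or control libraries 1 or 2). Their shares were 15.2% higher and 6.52% lower. Klhl11 had 4.60, 5.15 and 4.85 RPKM in TGFα lungs, against 1.25, 0.902 and 1.21 RPKM in control lungs (log2 fold change 1.47, SE 0.12, adjusted p = 0.000736). In pirfenidone lungs it had 1.04, 0.963 and 1.42 RPKM. Klhl5, the most abundant of that list, fell, with 48.6, 49.1 and 45.7 RPKM in TGFα lungs, against 89.8, 85.9 and 68.2 RPKM in control lungs (log2 fold change -0.74, SE 0.11, adjusted p = 0.00388). TRIM proteins gave 9 lower and 2 higher of 40 (1 to 3 higher and 4 to 10 lower with 1 library left out, moved without vehicle libraries 2 or 3 or control libraries 1 or 2). Trim16 had 10.5, 10.2 and 10.9 RPKM in TGFα lungs, against 23.3, 22.4 and 18.99 RPKM in control lungs (log2 fold change -0.97, SE 0.11, adjusted p = 0.00166). Pmaip1 lost the call without vehicle libraries 2 or 3 or control libraries 1, 2 or 3 (adjusted p = 0.0502 to 0.102).

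The share of calls also varied with gene length, as recovered from the steps of the RPKM values. Of the 693 tested genes over 8000 bases, 19.8% were called higher and 9.24% lower. Of the 5446 genes of 2000 to 4000 bases, 10.7% were higher and 12.5% lower. The 197 genes of up to 500 bases had 13.7% higher and 5.58% lower, and their median log2 fold change was 0.23. Both ends of the length range thus leaned upward relative to the middle. With each library corrected for gene length the calls numbered 1546 higher and 1819 lower, and 3058 of the 3365 were among the 3222. For the host genes, 6 rather than 9 were then called higher, as given above.

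**Figure D5:**
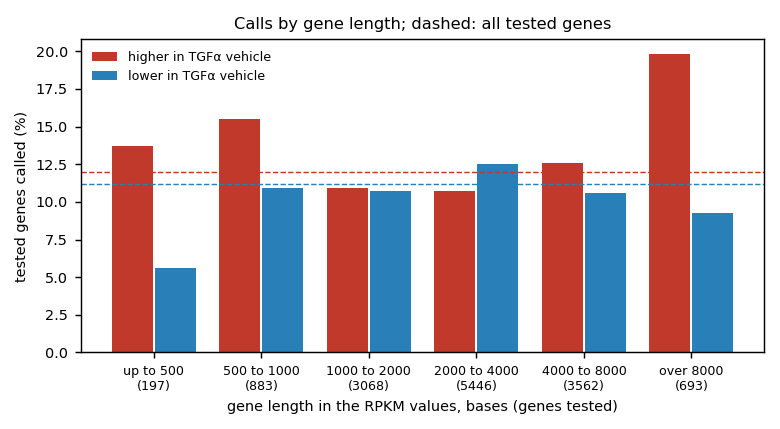
Share of tested genes called higher (left bar of each pair) and lower (right bar) in TGFα lungs by gene length in bases, with the number of genes in parentheses. Dashed lines mark the shares over all tested genes. The share called higher is 19.8% for genes over 8000 bases and 10.7% for genes of 2000 to 4000 bases.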

How the data were processed

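Libraries were made from total lung RNA, and the deposited table gives RPKM per gene and library. Per the submitters' processing notes, the authors used bcl2fastq, CASAVA 1.8, TopHat and DESeq with the mm10 build. The sources used here name no annotation, counting method or strand setting. The deposited RPKM values stand in whole steps, and with the gene lengths recovered from those steps 99.99% of values came out as whole reads (within 0.01 reads), which gave the totals of 15474002 to 18874158 reads in the 6 libraries compared. At this depth 3 reads of a gene of 1000 bases equal 0.159 to 0.194 RPKM.

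Genes above 1 RPKM in at least 3 of 9 libraries were tested with limma 3.58.1 in R 4.3.3 (limma-trend on log2(RPKM + 1), group as the only term, all 9 libraries, 6 residual and 2.668 prior degrees of freedom, two-sided). P-values were adjusted by Benjamini-Hochberg over all 13849 genes. Fold changes on this scale understate the change of low genes, and a fold given as such divides mean RPKM in TGFα lungs by that in control lungs, or the inverse. The fit was also run on simulated libraries with the same spread for all genes and no uneven muscle or fat transcripts. That run does not show how the fit behaves on these libraries. Tables and figures were made with Python 3.11.15.

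Members and lists (78 families) were chosen with earlier results of these data known, and 60 symbols caught by name patterns were removed from lists after values had been seen. The genes named are the 15 largest increases and 15 largest decreases among called genes without overlap between groups and with at least 5 RPKM, outside matrix and marker lists and predicted genes; in each family up to 4 called members with the largest change and at least 2 RPKM, and the most abundant member; and Tgfa. Others are marked as chosen after their values were seen, and members listed without values are given to complete a count. A few genes that the rule chose are not reported here. Lists are described by counts and medians, with no test. Genes matched RefSeq by ID for 16140 of 16165. Alternatives were another pseudocount, no filter, median-of-ratios scaling, 6 libraries only, a replicate block, a length correction, each library left out and vehicle library 3 alone. Genes were not tested with a count model.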

Additional observations from a re-analysis of the deposited data

Results flagged for a closer look

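Keratins of squamous epithelium appeared in a library outside this comparison. In pirfenidone library 2, Krt13 stood at 361 RPKM, Krt4 at 295 RPKM and Krt5 at 21.1 RPKM. They are listed because the signal lies in samples the comparison does not use and is far above control lungs, where Krt13 had at most 0.344 RPKM, Krt4 at most 0.0836 RPKM and Krt5 at most 0.0885 RPKM. In TGFα lungs the highest values were 2.80 RPKM for Krt13, 1.84 RPKM for Krt4 and 0.447 RPKM for Krt5, all in vehicle library 2. Pirfenidone library 2 also had the largest sum of skeletal muscle markers, 2526 RPKM. This library enters the shared estimate of spread, and with the 3 pirfenidone libraries left out 3247 genes were called, of which 2818 were among the 3222, and 36 of the 410 genes followed singly lost the call.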

How the results depend on the processing

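The direction of each of the 410 called genes that the naming rule chose or that were added after their values were seen was kept under every alternative run. These genes were followed because they were called, and every alternative reuses the same libraries. The choice thus favours a kept direction, which is no independent support. Calls numbered 3274 with pseudocount 0.1 (1718 higher, 1556 lower), 3320 without a filter (1655, 1665), 3226 with median-of-ratios scaling (1471, 1755), 3247 with 6 libraries only (1813, 1434) and 3365 with the length correction (1546, 1819), against 1665 higher and 1557 lower as reported. Under these 5 settings 1, 16, 18, 36 and 12 of the 410 lost the call, 23 with a replicate block and 261 with vehicle library 3 as the lone TGFα lung. With 1 library left out, calls ranged between 1317 and 3769 in all, between 638 and 1976 higher and between 679 and 1793 lower, and calls among the 2693 family genes between 285 and 797. The lowest counts came without vehicle library 3 (1317), vehicle library 2 (1361), control library 2 (1614) and control library 1 (1667). With vehicle library 3 as the lone TGFα lung, assumed to vary like the other groups, 908 genes were called (388 higher, 520 lower) and 171 of the family genes, against 692. The cause was not tested. Of these 410 calls, 207 were kept whichever library was left out. With a replicate block, 3222 genes were called, 1694 higher and 1528 lower, and 2869 were among the 3222 of the fit without it. No label gives a pairing, and after removal of group means same-numbered libraries correlated at 0.08, -0.02 and 0.12, while vehicle library 1 correlated best with control library 2 (0.15), so the numbers were not taken as pairs. Depth limits genes near 1 RPKM, where 3 reads matter, and 3 libraries a group limit small differences: a gene not called may still differ.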

Other observations

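A set of 29 genes was high in TGFα lungs alone. They were chosen after values were seen, as genes whose lowest TGFα value was above 2 RPKM and over 1.6 times the highest value of the other 6 libraries, pirfenidone lungs included. Of the 29, 27 also differed between pirfenidone and TGFα lungs in limma, a comparison that shares the TGFα libraries and so is no independent support. Zbed6, a transcription factor derived from a transposon, had 16.4, 16.1 and 16.2 RPKM in TGFα lungs, against 4.62, 3.51 and 3.66 RPKM in control lungs and 3.48, 3.58 and 4.67 RPKM in pirfenidone lungs. Lmbrd2, a membrane protein, had 6.01, 5.95 and 4.97 RPKM in TGFα lungs, against 0.976, 0.827 and 0.815 RPKM in control lungs and 0.833, 0.844 and 0.906 RPKM in pirfenidone lungs. Mib1, a ubiquitin ligase that activates Notch ligands, had 12.03, 12.998 and 12.4 RPKM in TGFα lungs, against 4.42, 4.46 and 4.72 RPKM in control lungs and 4.29, 3.41 and 5.04 RPKM in pirfenidone lungs. Tnpo1, a nuclear import receptor, had 22.7, 22.0 and 21.7 RPKM in TGFα lungs, against 8.63, 8.74 and 11.2 RPKM in control lungs and 8.66, 8.50 and 11.0 RPKM in pirfenidone lungs. In these 4 genes the 3 TGFα lungs were close to each other and the other libraries lay in a band below them. The median gene length of the set was 3285 bases, against 2882 bases for all tested genes.

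The reverse set, whose lowest value in the other 6 libraries was above 2 RPKM and over 1.6 times the highest TGFα value, had 10 genes: the heart muscle genes Actc1, Myl7, Myl4 and Pln, the lymphocyte genes Ccl5, Il2rb, Ptprcap and Tbc1d10c, and Wisp2 and Mettl24. Pln stood at 3.66, 1.803 and 2.20 RPKM in TGFα lungs, against 12.1, 21.8 and 9.94 RPKM in control lungs and at 8.22, 6.89 and 9.62 RPKM in pirfenidone lungs. The 2 sets were not tested further.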
